A study of Homo sapiens with 12 samples.

Results

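Expression of 10 circadian clock genes was measured in HK2 cells, an immortalised epithelial line from the human proximal tubule, in normal and high glucose and after the growth factor FGF9 was targeted or supplied. The 10 genes were PER1, PER2, PER3, CRY1, CRY2, NR1D1, NR1D2, DBP, TEF and CLOCK. They were found by symbol among the 62703 Ensembl gene identifiers of the expression table, and all 10 were present. There were 12 RNA libraries, 3 for each of 4 groups. By the labels, NG cells were kept in 5.5 mM glucose and received a control vector. HG cells were kept in 50 mM glucose. The si-FGF9 cells were kept in 5.5 mM glucose and were transfected with an siRNA against FGF9, and the HG+OE-FGF9 cells were kept in 50 mM glucose and received an FGF9-overexpressing lentivirus vector. No non-targeting siRNA is described for these libraries, and no empty vector for the HG cells, so the transfection itself cannot be told apart from the change in FGF9. Elsewhere the study describes mannitol in the NG medium and an adenovirus as the vector, so whether NG was matched to HG in osmolarity is unsettled. The hour of harvest and any synchronisation of the cells are not given in the sources used here.

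The circadian clock is a loop of transcription and translation that runs in nearly every cell. CLOCK and BMAL1 bind the E-box and activate genes that include the period and cryptochrome genes, whose proteins return to the nucleus and repress CLOCK and BMAL1. A further loop runs through NR1D1 and NR1D2, the nuclear receptors REV-ERB alpha and REV-ERB beta, which repress genes such as BMAL1 at the ROR element, and through DBP and TEF, which activate genes at the D-box. In the kidney tubule, clock genes are known for daily rhythms of salt and water transport.

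The RNA of the cells was read in bulk, so a change in the share of cells that express a gene and a change in the amount per cell cannot be told apart. Values are TPM (a transcript's share of all transcripts in a library, scaled to a fixed total), a measure per length that allows levels to be compared between genes and keeps no record of depth. The test took genes that reached 1 TPM in no fewer than 3 libraries, which kept 14639 genes in all and 9 of the 10 clock genes. PER2 did not reach a TPM of 1 in any of the 12 libraries and was not tested. Fold changes are differences of the group means of log2(TPM + 1), a scale on which the change of a weakly expressed gene appears too small. A gene is called changed here when its log2 fold change was at least 1 in either direction and its unadjusted p was under 0.01, the study's own limits, and the Benjamini-Hochberg adjusted p over all genes tested is given beside it. The p-values come from limma, fitted to all 12 libraries. Nothing in the labels says that the 3 libraries of a group came from separate cultures, so the p-values measure the spread between these libraries, which may be technical.

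FGF9 itself was listed at 0 TPM in all 9 libraries of NG, HG and si-FGF9, so the knockdown could not be checked in these values. In HG+OE-FGF9 it was at 3.34, 4.03 and 3.82 TPM. Of the markers of kidney epithelium, KRT8 was at 388.6 TPM or more and PAX8 at 19.7 TPM or more in every library, while CDH1 was at 0.28 TPM or less. Of the proximal tubule markers, GGT1 was at 71.7 TPM or more, but the defining transporters and receptors LRP2, CUBN and SLC34A1 were at 0.15 TPM or less throughout. The endothelial markers PECAM1, CDH5 and VWF and the leukocyte marker PTPRC were at 0.1 TPM or less, and the leukocyte-associated gene CD68 was at 108 to 158.7 TPM. Of the fibroblast markers, LUM was at 9.1 to 84.0 TPM and the other 5 stayed at 7.81 TPM or less, with PDGFRA at 0.02 TPM or less. Marker levels moved with the groups. The summed level of the 6 fibroblast markers, most of it LUM, was 62.4 to 89.2 TPM in NG and 17.1 to 41.0 TPM in HG. It was 11.6 to 21.0 TPM in si-FGF9 and 11.6 to 22.5 TPM in HG+OE-FGF9. PAX8 was at 78.1 to 79.1 TPM in NG and 60.9 to 67.8 TPM in HG. In si-FGF9 it was at 35.9 to 41.6 TPM and in HG+OE-FGF9 at 19.7 to 38.0 TPM. The sum of the 9 proximal tubule markers, most of it GGT1, was 74.4 to 87.5 TPM in NG and 99.9 to 140.8 TPM in HG. In si-FGF9 that sum was 177.0 to 197.2 TPM and in HG+OE-FGF9 84.2 to 92.2 TPM. Genes at 1 TPM or more numbered 13795 to 13949 in NG, 12350 to 13111 in HG, 11549 to 12013 in si-FGF9 and 13008 to 13236 in HG+OE-FGF9. The part of these differences in the results below was not tested. The library HG replicate 3 stood apart from the other HG libraries. In it 15.7% of the genes tested lay at least 1 log2 unit from the mean of the other two libraries of the group, against 10.1% in HG replicate 2, 8.31% in HG+OE-FGF9 replicate 3 and 1.23% to 3.69% in the other 9 libraries. The results that moved most with HG replicate 3 are given with and without it.

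The promoters of the 4 members that moved most, with that of PER1, are printed here, since clock proteins act on each other's genes through short motifs that can lie near a start. The 10 members matched 15 promoters of the RefSeq table for GRCh38.p14, of 300 bases each, 250 before and 50 after an annotated start. Only the 250 bases before the start are printed, 5′ to 3′ on the strand of the gene, and capitals mark matches to any of the 4 motifs searched. The motifs were the E-box CACGTG, the D-box TTANGTAA, the ROR core TAGGTCA or TGGGTCA and the cAMP response element TGACGTCA, on both strands. No match of a member shared bases with another. NR1D1 and DBP, on minus strands at chr17:40100590-40100839 and chr19:48637380-48637629, had higher levels in si-FGF9 than in NG. CRY1, on the minus strand at chr12:107093550-107093799, and NR1D2, at its second listed start on the plus strand at chr3:23945871-23946120, had lower levels. PER1 lies on the minus strand at chr17:8152405-8152654.
NR1D1: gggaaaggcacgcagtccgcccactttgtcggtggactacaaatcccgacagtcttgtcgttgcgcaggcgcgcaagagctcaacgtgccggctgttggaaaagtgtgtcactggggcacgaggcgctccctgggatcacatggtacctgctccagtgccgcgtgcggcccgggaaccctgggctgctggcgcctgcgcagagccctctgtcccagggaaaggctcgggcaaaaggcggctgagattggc
DBP: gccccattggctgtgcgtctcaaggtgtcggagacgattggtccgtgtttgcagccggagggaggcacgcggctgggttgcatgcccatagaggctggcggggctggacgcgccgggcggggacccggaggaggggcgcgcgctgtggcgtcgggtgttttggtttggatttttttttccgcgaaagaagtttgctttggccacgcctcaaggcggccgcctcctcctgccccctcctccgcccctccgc
CRY1: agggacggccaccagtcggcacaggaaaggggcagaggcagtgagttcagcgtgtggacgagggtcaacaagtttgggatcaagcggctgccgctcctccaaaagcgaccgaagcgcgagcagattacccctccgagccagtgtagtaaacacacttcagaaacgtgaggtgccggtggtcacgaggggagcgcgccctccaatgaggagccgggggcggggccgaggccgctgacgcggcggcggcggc
NR1D2: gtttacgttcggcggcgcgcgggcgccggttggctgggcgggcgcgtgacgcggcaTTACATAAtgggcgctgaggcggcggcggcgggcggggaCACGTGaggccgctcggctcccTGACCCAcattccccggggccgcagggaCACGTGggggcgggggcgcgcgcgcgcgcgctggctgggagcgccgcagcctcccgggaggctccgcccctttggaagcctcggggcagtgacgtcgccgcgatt
PER1: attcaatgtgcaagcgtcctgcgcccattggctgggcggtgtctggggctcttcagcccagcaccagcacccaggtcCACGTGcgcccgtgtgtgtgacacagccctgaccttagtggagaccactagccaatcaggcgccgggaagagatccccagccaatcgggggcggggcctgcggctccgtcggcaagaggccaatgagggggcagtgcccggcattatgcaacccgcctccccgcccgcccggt

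The second NR1D2 promoter held matches to 3 of the 4 motifs, and the first, which is not printed, held none. Its E-boxes began at -155 and -105 from the start, its D-box at -194, and its ROR core, read on the other strand, at -133. PER1 held an E-box at -173. NR1D1, DBP and CRY1 held no match in this window, which says only that these letters are not in it. Over the 15 member promoters, 4 held the E-box (PER1, NR1D2 and both TEF promoters), 3 the D-box (PER2, PER3 and NR1D2), 3 the ROR core (CRY2, NR1D2 and CLOCK) and 0 the cAMP response element. Of all 35116 promoters in the table, 7.26% held the E-box, 2.18% the D-box, 5.69% the ROR core and 1.85% the cAMP response element. A match is a run of letters and no evidence of binding.

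High glucose was compared with normal glucose first. CRY1 and NR1D2, both repressors of the loop, were lower in HG than in NG, and 0 of the 9 members tested were called higher. CLOCK was lower by a similar amount but missed the limit on p. PER1, PER3, CRY2, NR1D1, DBP and TEF were not called, and in most of them 1 HG library lay far from the other two.

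**Figure D1:**
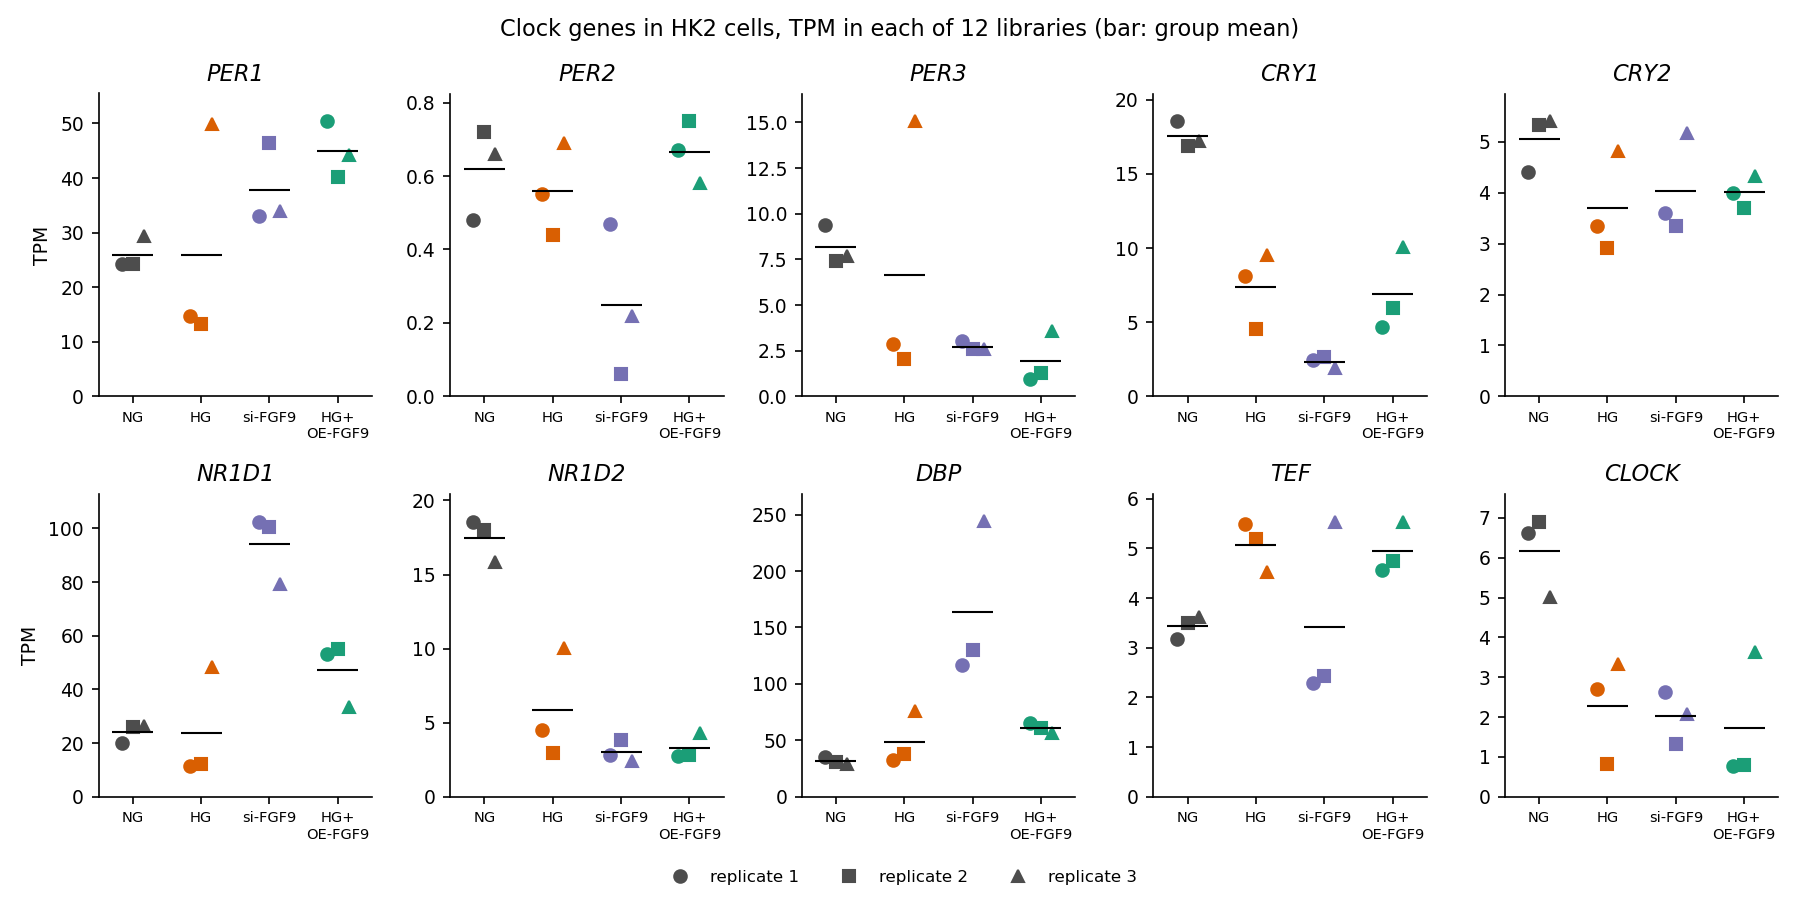
TPM of the 10 clock genes in each of the 12 libraries, by group, on linear axes that start at 0. Circles, squares and triangles are replicates 1, 2 and 3 and the bar is the group mean. In HG the triangle, replicate 3, is the highest library for 9 of the 10 genes, and the 3 si-FGF9 libraries of NR1D1 and DBP lie above all others.

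NR1D2, which represses at the ROR element together with NR1D1, was at 18.6, 18.0 and 15.9 TPM in NG and at 4.49, 2.96 and 10.1 TPM in HG. Every HG library lay below every NG library, with HG replicate 3 between the other HG libraries and NG. Its log2 fold change was -1.57 (SE 0.32, limma, adjusted p = 0.00256), the largest fall of the 9 members in HG versus NG. CRY1, the cryptochrome that represses CLOCK and BMAL1, was at 18.6, 16.9 and 17.2 TPM in NG and at 8.14, 4.53 and 9.53 TPM in HG. The groups did not overlap, and the log2 fold change was -1.19 (SE 0.28, limma, adjusted p = 0.00468). CLOCK, the activating subunit, was at 6.61, 6.91 and 5.02 TPM in NG and at 2.71, 0.82 and 3.33 TPM in HG. The groups again did not overlap, with a log2 fold change of -1.21 (SE 0.40, limma, adjusted p = 0.0247) whose unadjusted p of 0.0102 missed the limit.

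The members called were 2 of 9, both lower. Over all 14639 genes, 22.7% were called lower and 1.65% higher in this comparison, so a share of that size is near the background. An adjusted p under 0.05 was reached by 3 of the 9 members, all lower, against 49% of all genes in either direction. The groups did not overlap for 4 of the 9 members, against 57.2% of all genes. The members' log2 fold changes had a median of -0.38, and the median of all genes was -0.39.

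The remaining members were read with and without HG replicate 3. PER1, a period gene whose transcription also responds to acute signals, was at 24.3, 24.3 and 29.3 TPM in NG and at 14.8, 13.3 and 49.9 TPM in HG. PER3 was at 9.41, 7.42 and 7.68 TPM in NG and at 2.88, 2.05 and 15.1 TPM in HG. NR1D1 was at 20.2, 26.1 and 26.3 TPM in NG and at 11.3, 12.3 and 48.2 TPM in HG. In all 3 genes HG replicates 1 and 2 lay below NG and HG replicate 3 above it. The level in HG replicate 3 was 6.12 times the mean of the other HG libraries for PER3, 4.08 times for NR1D1 and 3.56 times for PER1. With all libraries the log2 fold changes were -0.67 for PER3, -0.25 for PER1 and -0.32 for NR1D1, and limma gave adjusted p of 0.302, 0.611 and 0.564. Without HG replicate 3 they were -1.41, -0.84 and -0.97, with limma adjusted p of 0.00269, 0.00198 and 0.00326, and the members called lower rose from 2 to 4 (PER3, CRY1, NR1D2 and CLOCK). Over all genes tested, those called lower rose as well, from 3328 of 14639 to 4178 of 14551. Without HG replicate 2 only NR1D2 was called, and 2115 of 14564 genes were called lower.

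CRY2, the paralog of CRY1, was at 4.40, 5.33 and 5.41 TPM in NG and at 3.34, 2.92 and 4.83 TPM in HG, and the groups overlapped. DBP was at 35.1, 30.4 and 28.6 TPM in NG and at 32.4, 37.9 and 76.0 TPM in HG, with 1 HG library well above the rest. Its log2 fold change was 0.53 with all libraries and 0.16 without HG replicate 3 (limma, adjusted p = 0.183 and 0.622). TEF was at 3.18, 3.49 and 3.62 TPM in NG and at 5.50, 5.19 and 4.52 TPM in HG. TEF was the only member whose HG libraries all lay above NG and the only one with HG replicate 3 below the other HG libraries, but its log2 fold change of 0.45 (SE 0.24) had a limma adjusted p of 0.142. PER2 stayed low, at 0.48, 0.72 and 0.66 TPM in NG and 0.55, 0.44 and 0.69 TPM in HG.

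The siRNA group was then compared with NG, both in 5.5 mM glucose. Members moved in both directions. DBP, the D-box activator, and NR1D1, the REV-ERB alpha repressor, were higher in si-FGF9, while CRY1, NR1D2 and CLOCK were lower. These 5 of the 9 members were called, and PER1, PER3, CRY2 and TEF were not.

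DBP was at 117.2, 130.0 and 243.9 TPM in si-FGF9, against 35.1 TPM or less in every NG library. It had the highest level of the 10 members in this group, and its 3 libraries lay apart from those of every other group. The log2 fold change was 2.27 (SE 0.31, limma, adjusted p = 5.05e-05). NR1D1 was at 102.6, 100.5 and 79.4 TPM in si-FGF9, against 26.3 TPM or less in NG. The log2 fold change was 1.92 (SE 0.42, limma, adjusted p = 0.00151), and again no library of another group reached the si-FGF9 range.

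CRY1 was at 2.47, 2.64 and 1.88 TPM in si-FGF9, against 16.9 TPM or more in NG, with a log2 fold change of -2.48 (SE 0.28, limma, adjusted p = 1.65e-05). NR1D2 was at 2.82, 3.82 and 2.42 TPM, against 15.9 TPM or more in NG, with a log2 fold change of -2.21 (SE 0.32, limma, adjusted p = 7.11e-05). CLOCK was at 2.63, 1.33 and 2.09 TPM, against 5.02 TPM or more in NG, with a log2 fold change of -1.26 (SE 0.40, limma, adjusted p = 0.0131). In all 3 genes the groups were separate. For CLOCK the call was lost with a pseudocount of 0.1, with no filter on low values and without any of the 3 NG or 3 si-FGF9 libraries or HG replicate 1.

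PER3 was at 3.02, 2.57 and 2.58 TPM, below every NG library, and its log2 fold change of -1.30 (SE 0.51, limma, adjusted p = 0.0385) was not called. HG replicate 3 is in neither group but enters the spread that limma estimates over all libraries. Without it the same fold change of PER3 was called (SE 0.28, limma, adjusted p = 0.00134). Over all genes, 6237 of 14551 were called lower in that fit. PER1 was at 33.1, 46.5 and 34.0 TPM, above every NG library, with a log2 fold change of 0.52 (SE 0.38, limma, adjusted p = 0.243). Without HG replicate 3 that fold change had a limma adjusted p of 0.0114 and was still under the limit. CRY2 was at 3.60, 3.35 and 5.17 TPM and overlapped NG. TEF was at 2.29, 2.44 and 5.54 TPM, with 2 libraries below all of NG and 1 above. PER2 was at 0.47, 0.06 and 0.22 TPM, below every NG library and near the low end of what 2 decimals can show.

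Among all genes tested, 5.36% were called higher and 42.2% lower in si-FGF9, against 2 and 3 of the 9 members. An adjusted p under 0.05 was reached by 6 of the 9 members, 2 of them higher, and by 69.3% of all genes. The groups did not overlap for 7 of the 9, and for 76.4% of all genes. The median log2 fold change of the 9 members was -0.28 and that of all genes was -0.79.

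**Figure D2:**
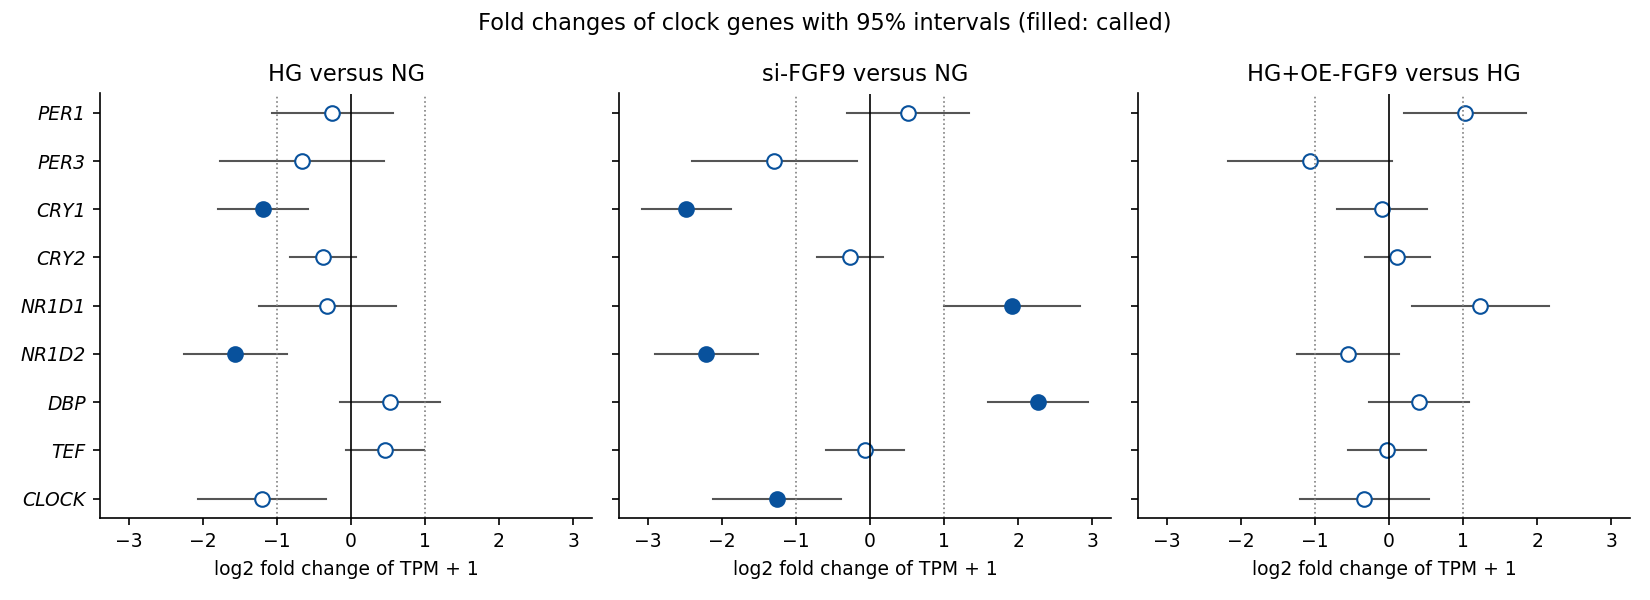
Log2 fold changes of TPM + 1 of the 9 clock genes tested, in 3 comparisons, with 95% confidence intervals from limma. Filled points are called changed and dotted lines mark a log2 fold change of 1 in each direction. DBP (2.27) and NR1D1 (1.92) are to the right and CRY1 (-2.48) and NR1D2 (-2.21) to the left in si-FGF9 versus NG, and no point is filled in HG+OE-FGF9 versus HG.

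The fold changes of the members were set beside the GC content of their longest transcripts, because the fold changes of all genes followed GC content. Across 14191 genes with a GC content, Spearman's rho between GC content and the fold change relative to NG was 0.64 for HG and 0.57 for si-FGF9 (genes are not independent replicates). Genes were split by GC content into 10 bins of equal size. The bin from 26.7% to 38.4% had median log2 fold changes of -1.22 (HG) and -1.79 (si-FGF9) relative to NG, and the bin from 61.3% to 74.7% had 0.30 and 0.20. CLOCK, CRY1 and NR1D2 had the lowest GC content of the members, at 37.2%, 37.3% and 38.5%. CRY1 and NR1D2 were called lower in both comparisons and CLOCK in si-FGF9 versus NG alone. DBP and NR1D1 were at 57.8% and 59.5%, and PER1 had the highest value at 62.7%.

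After a spline of GC content was subtracted from each library, 0 of the 9 members were called in HG versus NG and 2 in si-FGF9 versus NG, NR1D1 and DBP. Over all 14191 genes, 536 were then called higher and 434 lower in HG versus NG. In si-FGF9 versus NG 1751 were called higher and 1701 lower, so 2 of 9 is near the share of all genes called in either direction. The log2 fold changes of NR1D1 and DBP in si-FGF9 were then 1.99 and 2.45, both above the reported ones, with limma adjusted p of 0.00389 and 9.91e-05. CRY1 went from -2.48 to -0.83 and NR1D2 from -2.21 to -0.58 in si-FGF9, no longer past the fold limit, with limma adjusted p of 0.000461 and 0.0103. CLOCK turned from -1.26 to 0.39, with a limma adjusted p of 0.254. In HG versus NG, CRY1 went from -1.19 to -0.07 and NR1D2 from -1.57 to -0.47, with limma adjusted p of 0.716 and 0.0461. The rise of NR1D1 and DBP in si-FGF9 was thus as large with the correction as without it, and the falls of CRY1, NR1D2 and CLOCK were not.

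**Figure D3:**
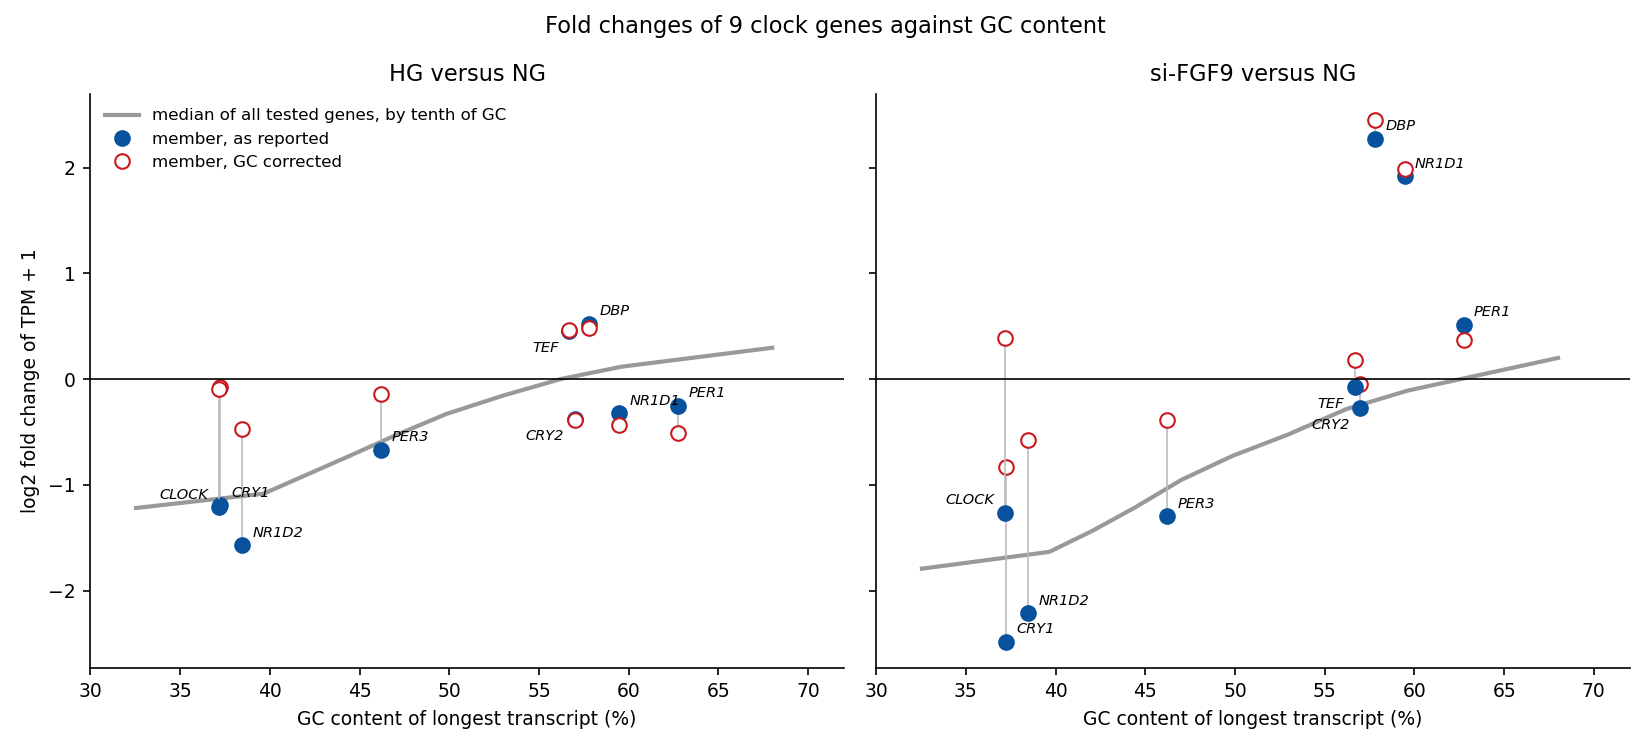
Log2 fold changes of the 9 clock genes tested against the GC content of their longest transcript in percent, with HG and si-FGF9 each set against NG. Filled points are the reported values, open points those after the correction for GC content, and the grey line joins the medians of all genes over 10 bins of GC content. CLOCK, CRY1 and NR1D2 at 37.2% to 38.5% move furthest with the correction, while NR1D1 and DBP stay at 1.99 and 2.45 in si-FGF9.

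Another scaling of the libraries moved all genes together. With the median of ratios, the middle log2 fold change over the 14639 genes went from -0.39 to 0.004 in HG versus NG and from -0.79 to -0.01 in si-FGF9 versus NG. The genes called higher and lower went from 242 and 3328 to 1063 and 1240 in HG versus NG, and from 785 and 6181 to 2774 and 2613 in si-FGF9 versus NG. Of the members, 1 was then called higher (DBP, log2 fold change 1.02, limma, adjusted p = 0.0243) and 1 lower (NR1D2) in HG versus NG, and 3 higher and 2 lower in si-FGF9 versus NG. On that scale PER1 was called higher in si-FGF9, with a log2 fold change of 1.51 (limma, adjusted p = 0.00273), and NR1D1 and DBP reached 2.92 and 3.28. CRY1 and NR1D2 remained lower in si-FGF9 on that scale, at -1.61 and -1.32, and were still called, while CLOCK was at -0.47 and was not. In HG versus NG, PER1, NR1D1 and CRY2 changed sign on that scale, to 0.24, 0.17 and 0.03, and none of the 3 was called on either scale.

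Overexpression of FGF9 in high glucose was compared with HG alone. None of the 9 members was called with limma, and the count at an adjusted p under 0.05 was also 0. At an unadjusted p under 0.05, PER1 and NR1D1 were higher in HG+OE-FGF9. Over all genes, 2.94% were called higher, 2.67% lower and 9.53% had an adjusted p under 0.05. The groups overlapped for all 9 members, and did not overlap for 22.1% of all genes. The median log2 fold change of the 9 members was -0.03 and that of all genes was -0.13.

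PER1 was at 50.5, 40.2 and 44.2 TPM in HG+OE-FGF9 and NR1D1 at 53.2, 55.1 and 33.3 TPM. Both lay above HG replicates 1 and 2, and HG replicate 3 fell within the range of both. The log2 fold changes were 1.02 (SE 0.38, limma, adjusted p = 0.106) for PER1 and 1.23 (SE 0.42, limma, adjusted p = 0.0881) for NR1D1. Without HG replicate 3 they were 1.61 and 1.88, with limma adjusted p of 0.00046 and 0.000592, and both genes were called higher. That fit leaves HG with 2 libraries, and it called 535 of 14551 genes higher. With the correction for GC content as well, an alternative chosen after the data were seen, they were 1.64 and 1.90, and both were also called lower in HG than in NG, at -1.18 and -1.16. With the median of ratios and all 12 libraries they were 1.16 and 1.37, and both were called. With the correction for GC content alone and all 12 libraries they were 0.97 and 1.18, and neither was called (limma, adjusted p = 0.14 and 0.108). Their lowest values on leaving out a library were 0.69 for PER1 and 0.88 for NR1D1. DBP was at 65.0, 60.7 and 56.4 TPM, between HG replicates 1 and 2 below and HG replicate 3 above, with a log2 fold change of 0.41 (SE 0.31, limma, adjusted p = 0.401) that was 0.77 without HG replicate 3 (limma, adjusted p = 0.0698).

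PER3 was at 0.97, 1.27 and 3.59 TPM in HG+OE-FGF9, with a log2 fold change against HG of -1.07 (SE 0.51, limma, adjusted p = 0.19). Without HG replicate 3 it was -0.33 (limma, adjusted p = 0.518). CRY1 was at 4.67, 5.94 and 10.1 TPM, NR1D2 at 2.74, 2.80 and 4.32 TPM and CLOCK at 0.76, 0.79 and 3.63 TPM. In these 4 genes HG+OE-FGF9 replicate 3 was the highest of its group, and it was also the library of that group that stood furthest from its fellows over all genes. CRY2, TEF and PER2 differed little, with group means of 4.01, 4.95 and 0.667 TPM in HG+OE-FGF9 and 3.70, 5.07 and 0.56 TPM in HG.

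The 4 groups were then ordered by mean TPM for each member that was called. The other pairs of groups were taken from the same limma fit, and they share libraries with the comparisons above. NR1D2 fell in the order NG, HG, HG+OE-FGF9 and si-FGF9. HG+OE-FGF9 lay below NG, with a log2 fold change of -2.12 (SE 0.32, limma, adjusted p = 0.000154), and HG, HG+OE-FGF9 and si-FGF9 did not differ beyond their spread. CRY1 had the same order. For CRY1 si-FGF9 lay below both HG (log2 fold change -1.29, limma adjusted p = 0.00703) and HG+OE-FGF9, which was higher than si-FGF9 by 1.20 (limma, adjusted p = 0.00962). CLOCK and PER3 were highest in NG, then HG, then si-FGF9, and lowest in HG+OE-FGF9. For PER3 the place of HG above si-FGF9 rested on HG replicate 3, at 15.1 TPM against 2.88 and 2.05 TPM in the other HG libraries. CLOCK and PER3 were both called lower in HG+OE-FGF9 than in NG, with log2 fold changes of -1.55 (limma, adjusted p = 0.00473) and -1.74 (limma, adjusted p = 0.0101). The neighbouring groups below NG did not differ beyond their spread. With the correction for GC content none of these 4 members was called in HG+OE-FGF9 versus NG. The log2 fold changes were then -0.71 for NR1D2, -0.09 for CLOCK and -1.13 for PER3 (limma, adjusted p = 0.00344, 0.806 and 0.0498). CRY1, which was called lower in HG+OE-FGF9 than in NG at -1.29 (limma, adjusted p = 0.00154), turned to 0.17 (limma, adjusted p = 0.334). The differences of CRY1 between si-FGF9 and the high-glucose groups kept their direction with the correction but fell under the limit on fold change. They were -0.76 for si-FGF9 against HG and 0.996 for HG+OE-FGF9 against si-FGF9 (limma, adjusted p = 0.00384 and 0.000711).

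DBP fell in the order si-FGF9, HG+OE-FGF9, HG and NG. It was higher in si-FGF9 than in HG+OE-FGF9, which was lower by a log2 fold change of -1.34 (SE 0.31, limma, adjusted p = 0.00956), and higher in si-FGF9 than in HG by 1.75 (limma, adjusted p = 0.00337). HG+OE-FGF9 and HG, and HG and NG, did not differ beyond their spread. Every HG+OE-FGF9 library lay above every NG library, with a log2 fold change of 0.93 (limma, adjusted p = 0.0194) that was under the limit. NR1D1 fell in the order si-FGF9, HG+OE-FGF9, NG and HG. It was higher in si-FGF9 than in HG by 2.24 (limma, adjusted p = 0.00432), whereas HG+OE-FGF9 was not called against si-FGF9 (log2 fold change -1.01, limma, adjusted p = 0.103) or against NG (0.91, limma, adjusted p = 0.077). Every HG+OE-FGF9 library of NR1D1 lay below every si-FGF9 library and above every NG library. HG replicate 3 is in none of these groups but enters the spread that limma estimates over all libraries. Without it the fold changes were the same. The limma adjusted p was then 0.00329 against si-FGF9, which was called, and 0.00167 against NG, which stayed under the fold limit.

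Paralogs were compared within each library, which removes most of any scaling of the library as a whole but not all of it, since 1 is added to each TPM. With the median of ratios, an alternative chosen after the data were seen, the shift in si-FGF9 versus NG went from 4.13 to 4.24 for NR1D1 minus NR1D2, from -2.21 to -2.18 for CRY1 minus CRY2 and from 2.35 to 2.58 for DBP minus TEF. The differences are of log2(TPM + 1), and an exact two-sided permutation test on such groups of 3 has a smallest possible p of 0.1. NR1D1 stood above NR1D2 by 0.11, 0.51 and 0.69 in NG and by 1.17, 1.75 and 2.15 in HG. The difference widened to 4.76, 4.40 and 4.56 in the si-FGF9 libraries, and the HG+OE-FGF9 libraries had 3.86, 3.89 and 2.69. The 4 groups did not overlap, and all 12 values were above 0. The mean difference (± SD, n = 3) was 0.44 ± 0.30 for NG and 1.69 ± 0.50 for HG. It was 4.57 ± 0.18 for si-FGF9 and 3.48 ± 0.68 for HG+OE-FGF9. The exact permutation p was 0.1, the smallest possible, in all 3 comparisons.

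The correction for GC content changed this contrast by group. It took the shift of the NR1D1 and NR1D2 difference from 1.25 to 0.04 in HG versus NG (exact permutation p = 1), from 4.13 to 2.57 in si-FGF9 versus NG (exact permutation p = 0.1) and from 1.79 to 1.41 in HG+OE-FGF9 versus HG (exact permutation p = 0.2).

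CRY1 and CRY2, the cryptochromes, changed places. CRY1 was above CRY2 by 1.86, 1.5 and 1.51 in NG and by 1.07, 0.50 and 0.85 in HG, and below it in all 3 si-FGF9 libraries, with differences of -0.41, -0.26 and -1.10. In HG+OE-FGF9 it was above by 0.18, 0.56 and 1.06, a range that overlapped HG. The mean shift was -0.81 in HG versus NG and -2.21 in si-FGF9 versus NG, both with an exact permutation p of 0.1, the smallest possible. With the correction for GC content the shifts were 0.31 (exact permutation p = 0.4) and -0.79 (exact permutation p = 0.1), so that the direction in HG versus NG depended on it.

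DBP and TEF both bind the D-box. DBP was above TEF by 3.11, 2.81 and 2.68 in NG and by 5.17, 5.25 and 5.23 in si-FGF9. The HG+OE-FGF9 libraries had 3.57, 3.42 and 3.14. In HG the differences were 2.36, 2.65 and 3.80, on both sides of NG. The si-FGF9 libraries stood 2.35 above NG in the mean, with no overlap (exact permutation p = 0.1), and the correction for GC content left that shift at 2.28.

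**Figure D4:**
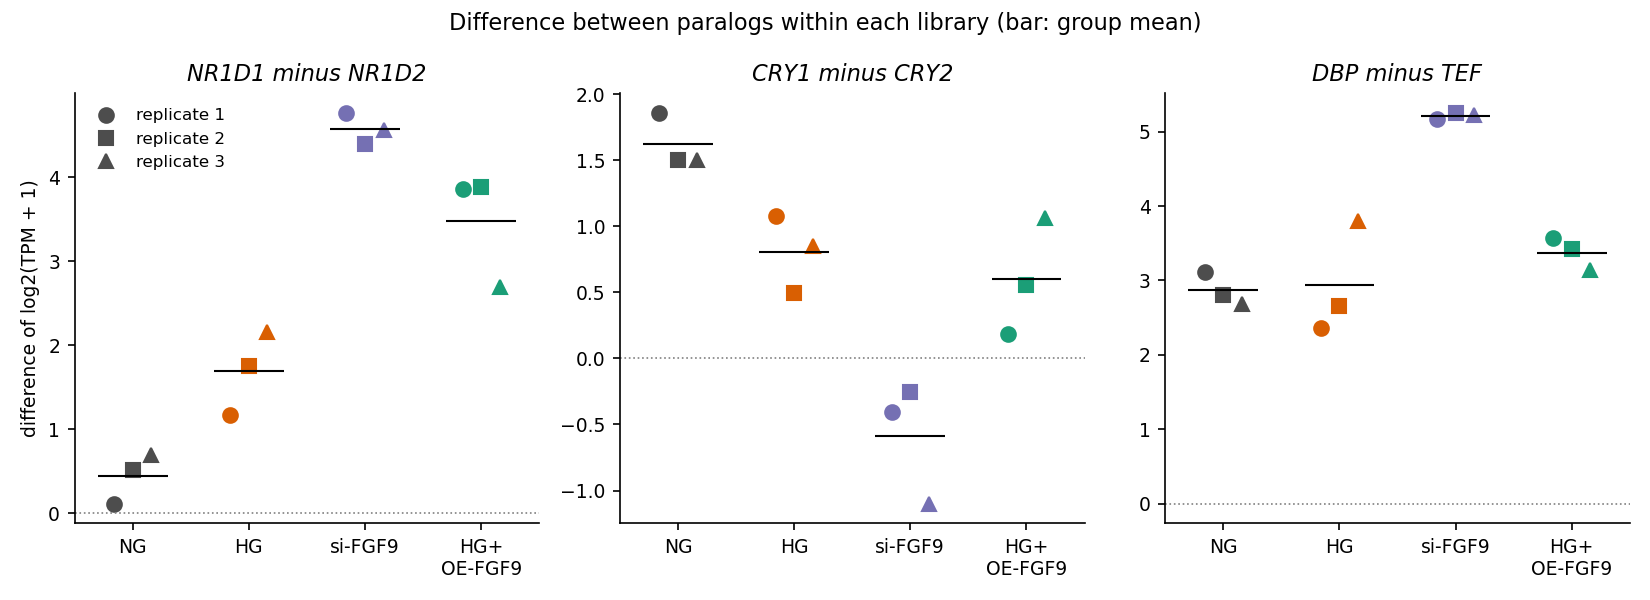
Difference of log2(TPM + 1) between paralogs in each of the 12 libraries, by group. Circles, squares and triangles are replicates 1, 2 and 3, the bar is the group mean and the dotted line marks equal levels. NR1D1 minus NR1D2 rises from a mean of 0.44 in NG to 4.57 in si-FGF9, with HG (1.69) and HG+OE-FGF9 (3.48) between, and CRY1 minus CRY2 is below 0 in the 3 si-FGF9 libraries alone.

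Some reads could not be assigned to a single gene without strand, and whether the counting used strand is not given in the sources used here. In GENCODE 29 on GRCh38, NR1D1 (chromosome 17, 40092787 to 40100725) shares 263 exon bases, 9.49% of its own, with THRA on the opposite strand. DBP (chromosome 19, 48630030 to 48637438) shares 661 exon bases, or 10.1%, with SPHK2 on the opposite strand. THRA was at 3.60 to 8.08 TPM and NR1D1 at 11.3 to 102.6 TPM in the 12 libraries. In HG replicate 1 the values were 4.51 TPM for THRA and 11.3 TPM for NR1D1. SPHK2 was at 0.80 to 3.18 TPM and DBP at 28.6 to 243.9 TPM. THRA and SPHK2 were lower in every si-FGF9 library than in every NG library, while NR1D1 and DBP were higher. How much reads from the opposite strand add to NR1D1 and DBP was not tested. PER3 shares 10.7% of its exon bases with UTS2, which was at 0.02 TPM or less.

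A list of 20 other clock genes was then examined, of which 17 were tested. NPAS2, RORB and HLF were too low. In HG versus NG 9 of the 17 were called, all lower, and the median log2 fold change of the 17 was -1.22, against -0.39 for all genes, of which 22.7% were called lower. In si-FGF9 versus NG 8 were called, all lower, with a median of -0.90, against -0.79 for all genes, and that share is near the 42.2% of all genes called lower. With the correction for GC content only NOCT was called in HG versus NG, at a log2 fold change of -1.29 (limma, adjusted p = 0.0149). In si-FGF9 versus NG 5 were then called, with RORA, CIART and GSK3B higher at 1.09, 1.52 and 1.11 and NFIL3 and NAMPT lower at -1.11 and -1.35. Over all 14191 genes, that correction left 1751 called higher and 1701 lower in si-FGF9 versus NG. In HG versus NG these were 536 and 434. The values that follow are without that correction. In HG+OE-FGF9 versus HG none was called with limma, and at an adjusted p under 0.05 only CSNK1D, a kinase of the period proteins, was lower (log2 fold change -0.73, limma, adjusted p = 0.0119).

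BMAL1, the partner of CLOCK, was at 10.1, 9.75 and 8.53 TPM in NG and at 3.03, 2.52 and 3.47 TPM in HG. The si-FGF9 libraries had 1.76, 2.99 and 1.77 TPM, and those of HG+OE-FGF9 had 4.21, 3.14 and 3.01 TPM. NG stood above the other 3 groups without overlap. Its log2 fold change was -1.39 (SE 0.20, limma, adjusted p = 0.000761) in HG and -1.74 (SE 0.20, limma, adjusted p = 1.90e-05) in si-FGF9. With the correction for GC content these were -0.58 and -0.46 (limma, adjusted p = 0.0393 and 0.0566), and neither was called. BMAL2, its paralog, was lower too, with log2 fold changes of -1.24 and -1.61. With the correction for GC content BMAL2 was at -0.23 and -0.09 (limma, adjusted p = 0.361 and 0.716). RORA, an activator at the ROR element, was not called in either without the correction, at -0.60 and -0.55.

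NFIL3, which competes with DBP and TEF for the D-box, was at 41.4 TPM or more in NG and at 23.9 TPM or less in every other library. Its log2 fold change was -1.38 in HG and -2.0 in si-FGF9 (limma, adjusted p = 0.00321 and 8.45e-05). BHLHE40, an E-box repressor, was called lower in HG (-1.23) and not in si-FGF9 (-0.90). Its paralog BHLHE41 was at -0.54 and -0.84 and was not called in either. CIART, which represses CLOCK and BMAL1, was at 17.2, 17.2 and 15.5 TPM in NG and at 30.7, 33.2 and 32.1 TPM in si-FGF9. Every si-FGF9 library was above NG, and CIART was the only one of the 17 with an adjusted p under 0.05 and a higher level in si-FGF9, though its log2 fold change of 0.91 (SE 0.32, limma, adjusted p = 0.0236) was under the limit. In HG it was at 12.9, 12.3 and 38.2 TPM, the same arrangement as PER1, PER3 and NR1D1, with HG replicate 3 above NG and the other HG libraries below.

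Among the genes for protein turnover, FBXW11 was called lower in both comparisons with NG and BTRC only in si-FGF9, and both belong to complexes that mark period proteins. USP2, a deubiquitinase, was at -0.23 and -0.21 and was not called. Of the kinases, CSNK1A1 fell by 1.54 on the log2 scale in HG and fell by 2.11 in si-FGF9, while CSNK1D, CSNK1E and GSK3B were not called in either. The clock output NAMPT, an enzyme of NAD synthesis, was at 183.6 TPM or more in NG, at 27.7 to 84.9 TPM in HG and at 17.8 to 32.9 TPM in si-FGF9. Its log2 fold changes of -1.99 and -3.00 (limma, adjusted p = 0.00212 and 3.50e-05) were the largest of the 17 in both comparisons. With the correction for GC content they were -0.86 and -1.35, and NOCT in HG (-1.29) and CIART in si-FGF9 (1.52) moved further. The other outputs were WEE1, a cell cycle kinase called lower in both, and NOCT, called lower in HG alone. With that correction WEE1 was at -0.21 and -0.05 and was not called in either.

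**Figure D5:**
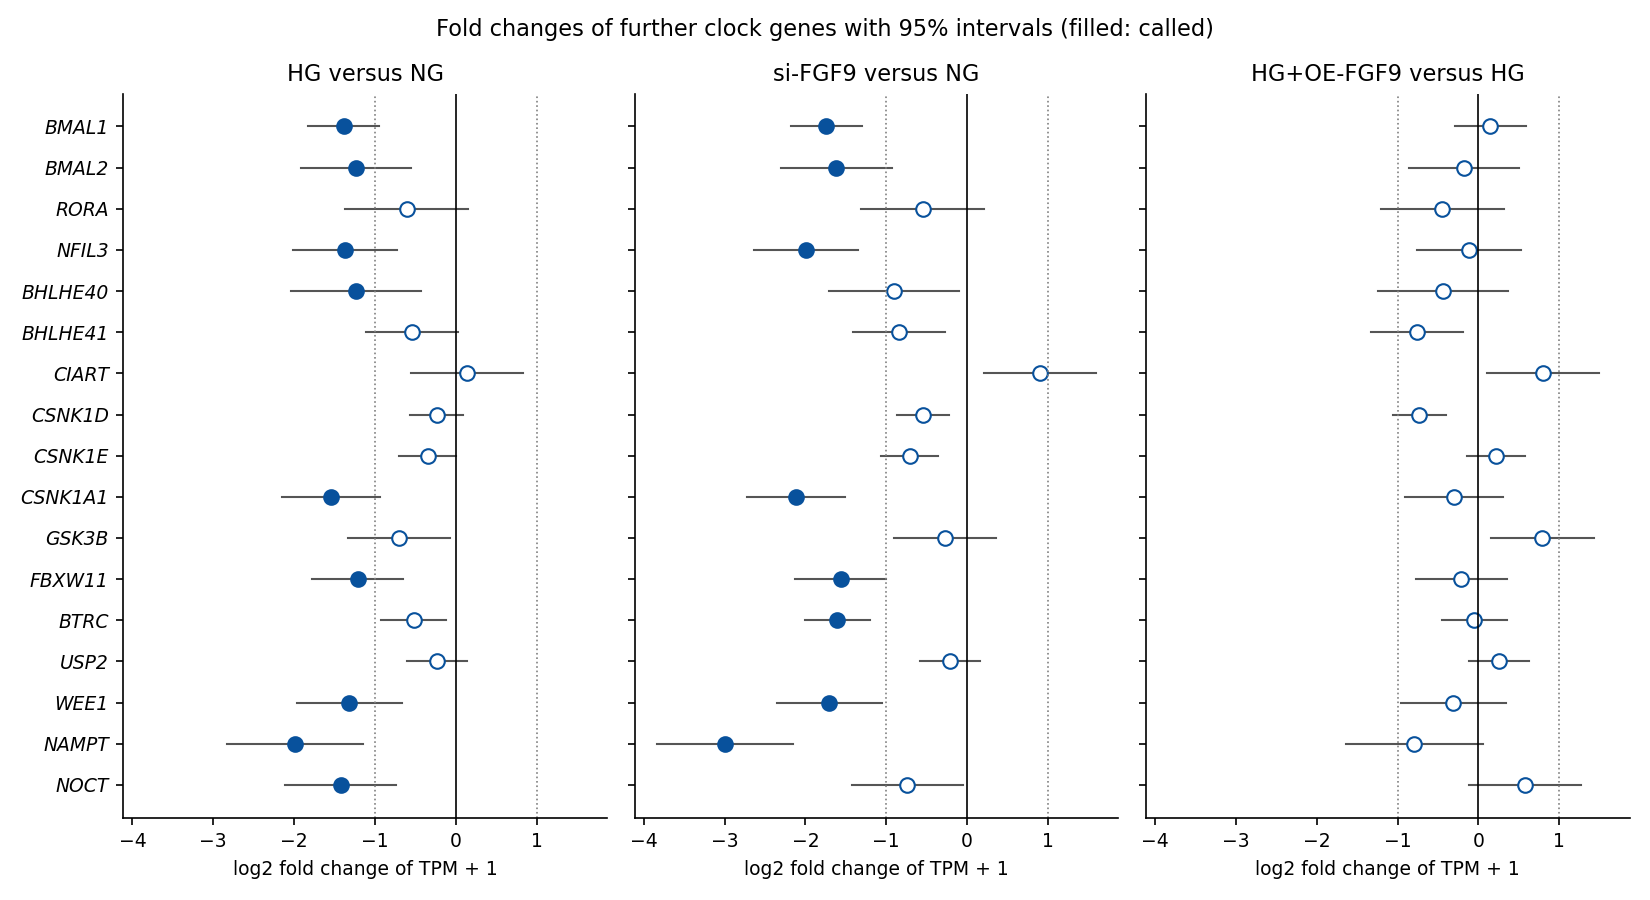
Log2 fold changes of TPM + 1 of the 17 other clock genes tested, in 3 comparisons, with 95% confidence intervals from limma. Filled points are called changed and dotted lines mark a log2 fold change of 1 in each direction. The 9 filled points in HG versus NG and the 8 in si-FGF9 versus NG are all to the left, and CIART is the point furthest to the right in si-FGF9 versus NG.

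HG replicate 3 lay above both other HG libraries for 9 of the 10 members and for 16 of the 20 other clock genes. The share of all genes for which it did so was not counted, so these counts do not set clock genes apart. Over all genes tested, 15.7% lay at least 1 log2 unit from the mean of the other HG libraries, in either direction. Without HG replicate 3 the other clock genes called in HG versus NG were 10, and in HG+OE-FGF9 versus HG 2 were called, both higher. Of the 14551 genes tested without it, 566 were called higher and 4178 lower in HG versus NG. In HG+OE-FGF9 versus HG 535 were called higher and 456 lower. With the median of ratios the other clock genes called were 2 in HG versus NG, both lower, and 4 in si-FGF9 versus NG, 1 higher and 3 lower.

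For each member called in a main comparison, the genes with the most similar pattern over the 12 libraries were named by Pearson's r of log2(TPM + 1), as a description. All 12 libraries enter with their group differences, so that any gene that follows the groups or GC content scores highly. Nearest to NR1D1 were MISP3 (r = 0.97), TNNI3 (0.97) and CRYAB (0.95), and nearest to DBP were SPC24 (0.96), SDHA (0.95) and FAM110A (0.94). These 6 genes had a GC content of 49.8% to 67.1%. Nearest to CRY1 were CXCL8 (0.99), DPM1 (0.99) and BZW2 (0.99), to NR1D2 PIKFYVE, OSMR and KMT2E (all 1.00) and to CLOCK PTGR2 (0.97), GRAMD1C (0.96) and WDHD1 (0.96). These 9 had a GC content of 33.4% to 45.2%, against 37.2% to 38.5% for the 3 members they follow.

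Among the members and the other clock genes, NR1D1 followed DBP (r = 0.85) and PER1 (0.79) over the 12 libraries, and PER1 followed CIART (0.93). NR1D2 followed BMAL2 (0.98), CRY1 (0.88), CLOCK (0.86) and PER3 (0.86). DBP and CRY1 ran against each other (r = -0.83). These values share the same 12 libraries and the same group differences and are given without a test.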

How the data were processed

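The authors sequenced RNA of HK2 cells on an Illumina HiSeq3000 and deposited 1 value per gene and library, taken here as TPM from the values. The submitters' processing notes list Bowtie 0.12.2 and the mouse build mm8, although the identifiers are human Ensembl genes. The quantification tool and annotation are not given in the sources used here. The depth of each library is unknown, so precision was judged from the 3 libraries of a group. The members and the lists were chosen with earlier results of these data known.

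Groups were taken from the sample labels. limma 3.58.1 in R 4.3.3 was fitted to log2(TPM + 1) with a variance trend over all 12 libraries, with Benjamini-Hochberg adjustment over 14639 genes, and was tested on simulated data. The named genes are the 10 members, the 17 tested of 20 other clock genes, the 3 nearest in pattern to each called member and FGF9. The list of other clock genes first held 2 more, which are not reported here and enter none of its counts. GC content came from the longest GENCODE 29 transcript, known for 96.9% of genes tested, and was corrected with a spline of 5 degrees of freedom per library. Paralogs were compared by exact two-sided permutation tests. Overlaps and promoters used GRCh38. The alternatives were other filters, pseudocounts, scalings, limits, blocks and corrections, and leaving out each library.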

Additional observations from a re-analysis of the deposited data

How the results depend on the processing

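Of 669 member fold changes recomputed under the alternatives, 576 kept their direction and their side of the limits, and 40 changed sign without being called in either setting. Sign changes of called values were confined to CLOCK in si-FGF9 versus NG, which was 0.39 with the correction for GC content, 0.58 with GC content and length, 0.39 with GC content and the replicate block, and 0.40 with GC content and without HG replicate 3. Without a replicate, the members called ranged from 1 to 4 in HG versus NG, from 4 to 6 in si-FGF9 versus NG and from 0 to 2 in HG+OE-FGF9 versus HG, and the other clock genes called from 6 to 10, from 8 to 8 and from 0 to 2. Over all genes, those called lower then ranged from 2115 to 4178 in HG versus NG and from 5769 to 6237 in si-FGF9 versus NG. In HG+OE-FGF9 versus HG, 225 to 535 were called higher and 210 to 1027 lower. With each correction for GC content (alone, with length, or with the replicate block) the members called were 0, 2 and 0 and the other clock genes 1, 5 and 1, in the same order of comparisons. The correction for GC content alone called 536 of all genes higher and 434 lower, then 1751 and 1701, then 430 and 309. With GC content and without HG replicate 3 the members called were 2, 2 and 2 and the other clock genes 3, 5 and 2. Over all genes that fit called 956 higher and 963 lower, then 1775 and 1719, then 496 and 439. The median of ratios gave 2 members in HG+OE-FGF9 versus HG, and 2 and 4 other clock genes in the first and second comparisons. In HG+OE-FGF9 versus HG it called 505 of all genes higher and 281 lower. Quantile normalization gave 1 member in HG versus NG, and 4 other clock genes in both comparisons with NG. Over all genes it called 1016 higher and 1220 lower in HG versus NG, and 2373 and 2500 in si-FGF9 versus NG. An adjusted p under 0.05 with any fold change gave 13 of the 17 other clock genes in si-FGF9 versus NG and 1 in HG+OE-FGF9 versus HG. Of all genes, 69.3% and 9.53% reached it in these comparisons, so 13 of 17 is near the background. The replicate block alone gave 3, 5 and 0 members. Over all genes it called 238 higher and 3280 lower in HG versus NG, 777 and 6145 in si-FGF9 versus NG, and 426 and 367 in HG+OE-FGF9 versus HG. Libraries of the same number had correlations of their deviations from the group means between -0.44 and 0.25, and those of different numbers between -0.34 and 0.46. Deviations within a group of 3 sum to 0, so these values cannot decide whether the numbers pair the samples. Paralog differences moved with a pseudocount of 0.1 for PER1 minus PER2 (1.74), PER2 minus PER3 (0.34) and NR1D1 minus NR1D2 (4.47) in si-FGF9 versus NG, with the median of ratios, in the same comparison, for PER1 minus PER2 (1.61), PER2 minus PER3 (0.35) and DBP minus TEF (2.58), and with GC content for NR1D1 minus NR1D2 (0.04 and 2.57) and CRY1 minus CRY2 (0.31 and -0.79) for HG and for si-FGF9 relative to NG. The causes were not tested. TPM do not tell the counting error of low genes such as PER2.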
